A study of Homo sapiens with 6 samples.

Results

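Glycolysis and hypoxia genes were examined in 3 human bladder cancer cell lines treated with quisinostat, an inhibitor of histone deacetylases (HDACs). The genes were 43 listed symbols of the oxygen-sensing pathway, the targets of hypoxia-inducible factor (HIF) and the enzymes of glycolysis, and they were chosen by matching the gene names of the deposited table. Of these, 39 were present among 10066 assembled loci, and EGLN1, PDK1, P4HA2 and ANKRD37 were not found among its names. The list was drawn up because CA9 and GAPDH fell with quisinostat in all 3 lines, so the falls of these 2 genes, and the contrast as a whole, are given as a description.

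RT4 and RT112 cells carry an FGFR3-TACC3 fusion and SW780 cells an FGFR3-BAIBP2L1 fusion, as the labels spell it. Each line was exposed for 2 days to DMSO or to quisinostat, at 50 nM in RT4, 10 nM in RT112 and 25 nM in SW780 cells, and 1 polyA RNA library was sequenced per line and treatment, 6 in all. RT4 cells grew in McCoy's 5A medium, SW780 cells in DMEM and RT112 cells in DMEM with added L-glutamine and non-essential amino acids, so line, dose and medium cannot be told apart. No library has a replicate, and a difference within a line therefore has no replicate error and no test.

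Values are FPKM, fragments per kilobase of transcript divided by the number of fragments mapped, and the depth behind them is unknown. In each line the log2 of quisinostat FPKM over DMSO FPKM was taken at the 9112 loci above 0 in all 6 libraries, which include 36 of the 39 genes. A gene is called lower (it fell) below -0.3, the limit the study set for downregulated genes, and higher (it rose) above 0.3, the same distance on the other side. All 12 urothelial and epithelial marker genes of a list were in the table, with summed FPKM between 986 and 1736 per library, and UPK3A was at 0 in both RT112 libraries. None of 7 blood and endothelial markers was found in it, and the summed FPKM of the 2 of 4 fibroblast markers found was at most 6.66.

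When oxygen is low, the HIF alpha subunits HIF1A and EPAS1 escape hydroxylation by the EGLN enzymes and destruction through VHL, pair with ARNT, and switch on genes for glucose uptake, glycolysis, acid export and blood vessel growth. CA9, a carbonic anhydrase at the cell surface that helps to keep the cell's pH, is among the most widely used HIF target genes and is a known marker of hypoxic tumours, bladder cancer included. Glycolysis turns glucose into pyruvate, and many of its enzymes have isozymes that answer differently to HIF.

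HIF binds DNA at a short core, ACGTG or GCGTG. Both cores were searched on both strands in RefSeq promoter windows of GRCh38.p14 (250 bases before to 50 after a gene's start), where 35 of the 39 genes had 63 windows in all; BNIP3L, NDRG1, VEGFA and VHL had none in the table. ACGTG was found in 24 of the 63 windows (38.1%) and in 21.4% of all 35116 windows, and either core in 43 (68.3%) and in 48.4% of all windows. Windows of 1 gene overlap in part, and a match of 5 letters describes the sequence and is not a binding site. Stretches with an ACGTG before the RefSeq start of 5 genes are shown because these genes stand for the patterns below, CA9 and GAPDH lower in all lines, BHLHE40 higher in all lines, and BNIP3 and ENO2 higher in RT4 and SW780 but lower in RT112 cells. They are written 5′ to 3′ on the gene's strand, and capitals mark ACGTG or its complement, which overlap as CACGTG. RefSeq and GENCODE 29 place some starts differently. The stretches of CA9, ENO2 and BHLHE40, of 30 bases each, lie before the RefSeq start but within exons of longer transcripts in GENCODE 29. The BNIP3 stretch lies before the gene in both annotations, and the GAPDH stretch lies inside the GENCODE gene without touching an annotated exon.
CA9 (chr9:35673898-35673927, plus strand): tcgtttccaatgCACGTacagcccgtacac
GAPDH (chr12:6535144-6535263, plus strand): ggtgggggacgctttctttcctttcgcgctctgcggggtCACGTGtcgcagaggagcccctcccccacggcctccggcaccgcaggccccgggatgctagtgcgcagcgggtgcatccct
BHLHE40 (chr3:4979187-4979216, plus strand): tccaaCACGTGagactcatgtgatgaagcc
BNIP3 (chr10:131982014-131982083, minus strand): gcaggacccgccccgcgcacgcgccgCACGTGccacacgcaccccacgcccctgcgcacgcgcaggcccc
ENO2 (chr12:6914450-6914479, plus strand): acccgcgctcgtACGTGcgcctccgccggc
Counting back from -1 at the base before the RefSeq start, the match lies at -18 in CA9 and at -118 in ENO2. Genes that moved in opposite directions carry the same letters. ADM, higher in all lines, and PKM, lower in all lines, have no ACGTG in their windows but do have GCGTG. Whether a core goes with the direction was not tested.

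The 36 genes did not move together. Of these, 7 were lower in all 3 lines (CA9, VEGFA, GPI, ALDOC, TPI1, GAPDH and PKM), which is 19.4% of 36, where 4.99% of all loci were. Without CA9 and GAPDH it was 5 of 34. ADM, MXI1 and BHLHE40, 3 of 36 (8.33%), were higher in all lines, where 11.4% of all loci were. Since the list was made with this contrast in view, nothing is read from these shares. Fewer cells that express a gene and less of its RNA per cell cannot be told apart in such libraries.

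By line, 14 of the 36 genes were lower in RT4 cells (33.5% of all loci were), 19 in RT112 cells (25.2%) and 14 in SW780 cells (28.2%). Higher were 17 in RT4 (40.3% of all loci), 7 in RT112 (36.0%) and 11 in SW780 cells (32.8%). In the order RT4, RT112 and SW780, the genes had a median ratio of 0.12, -0.35 and -0.11, beside 0.08, 0.06 and 0.04 over all loci. Dividing each library by its ACTB, the reference gene of the study's RT-qPCR, moves every ratio, since ACTB itself had log2 ratios of -0.83, 1.10 and 0.30. The medians were then 0.94, -1.45 and -0.41, and those of all loci 0.91, -1.05 and -0.26.

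**Figure D1:**
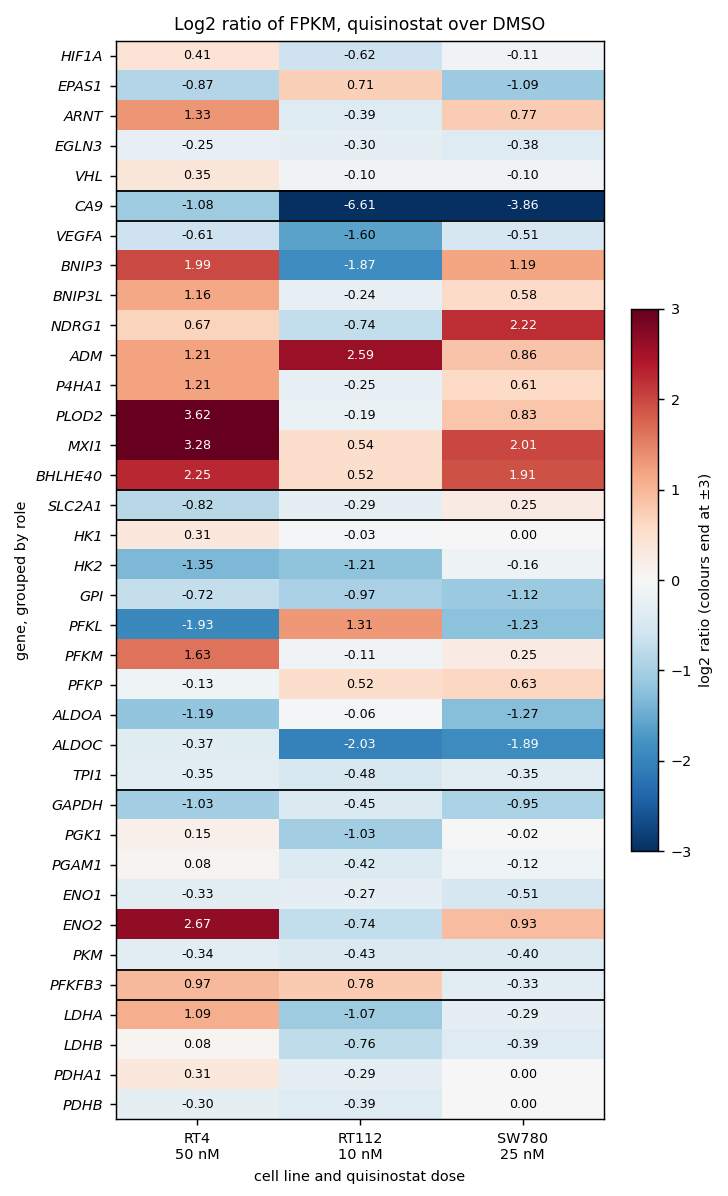
Log2 ratio of FPKM in quisinostat over DMSO for the 36 genes above 0 in all 6 libraries (rows, in blocks by role) in the 3 cell lines (columns), with 1 library per treatment; blue is lower, red is higher, and colours end at 3. CA9 is the darkest blue row, with -1.08, -6.61 and -3.86, while most HIF targets outside glycolysis are red in RT4 and SW780 and pale or blue in RT112 cells.

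CA9 (chromosome 9 of GRCh38, from 35673856 to 35681159 on the plus strand in GENCODE 29) was well expressed in 1 of the 3 lines only. Its FPKM fell in RT112 cells from 23.8 to 0.245, from 0.777 to 0.0535 in SW780 cells and from 0.462 to 0.219 in RT4 cells. The decrease was 97.5-fold in RT112, 14.5-fold in SW780 and 2.11-fold in RT4 cells. After quisinostat all 3 lines were below 0.25 FPKM, and only 4 of the 9112 loci had a lower ratio in RT112 cells. The fall in RT4 cells lay between values under 1 FPKM, and with a pseudocount of 1 or after correction for GC content CA9 was no longer below -0.3 there.

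CA12, the related HIF-responsive carbonic anhydrase, had the reverse distribution over the lines. It was at 68.4 FPKM in RT4 cells with DMSO and 45.5 with quisinostat, a log2 ratio of -0.59. In RT112 cells it was at 0.0202 FPKM with DMSO and listed at 0 with quisinostat, and in SW780 cells it was at 0.00551 and 0.0149 FPKM. With DMSO, RT4 cells thus had nearly all of the CA12 and RT112 cells nearly all of the CA9 of these lines. Summed over both genes, FPKM went from 68.9 to 45.7 in RT4, from 23.9 to 0.245 in RT112 and from 0.783 to 0.0685 in SW780 cells.

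VEGFA, the growth factor that draws in blood vessels, followed CA9 in direction in every line. Its FPKM went from 12.2 to 8.002 in RT4, from 18.2 to 6.003 in RT112 and from 7.21 to 5.06 in SW780 cells. The log2 ratios were -0.61, -1.60 and -0.51, and VEGFA was below -0.3 in all lines also after correction for GC content (weakest ratio -0.50). Its fall, like that of CA9, was deepest in RT112 cells, the line with the highest DMSO level.

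**Figure D2:**
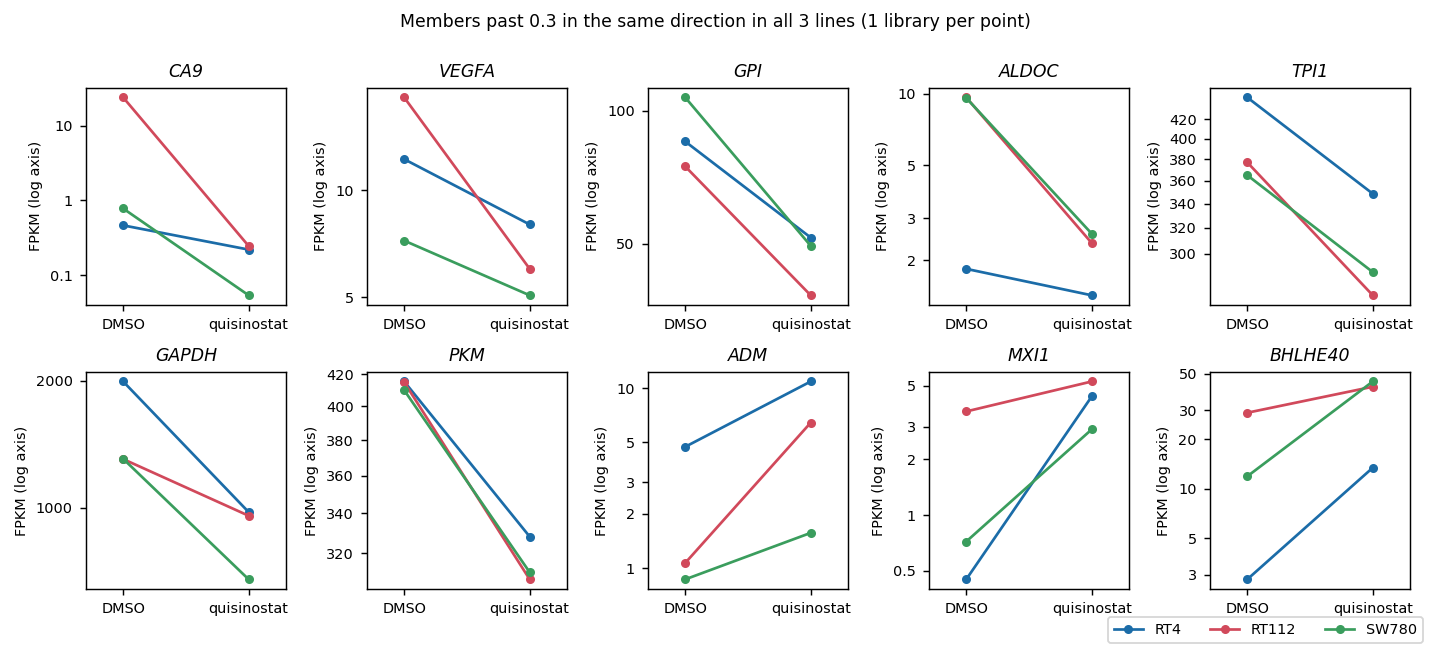
FPKM on a log axis with DMSO and with quisinostat in RT4, RT112 and SW780 cells (1 library per point, no error) for the 7 genes below -0.3 and the 3 above 0.3 in all 3 lines. PKM started at 415, 415 and 410.0 FPKM and ended between 308 and 328, while CA9 started at 23.8 in RT112 cells and under 1 in the others.

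As deposited, the summed mRNA of the glycolytic enzymes was lower in each line. In RT4 cells it was no longer below -0.3 after the GC correction or on division by ACTB. The FPKM summed over the 15 enzymes went from 3760.0 to 2440.1 in RT4, from 3511 to 2661 in RT112 and from 3427 to 2282 in SW780 cells, log2 ratios of -0.62, -0.40 and -0.59. Their share of the summed FPKM of all loci, which does not change with the scaling of a library, went from 1.43% to 0.963%, from 1.37% to 1.03% and from 1.41% to 0.961%. GAPDH alone made up 52.9% of this sum in RT4 cells with DMSO, and without it the log2 ratios were -0.27, -0.37 and -0.40. With the GC-corrected ratios of each enzyme the sum had log2 ratios of -0.034, -0.73 and -0.42, and without GAPDH 0.22, -0.66 and -0.26. On division by ACTB they were 0.20, -1.50 and -0.89, and without GAPDH 0.55, -1.48 and -0.70. Few abundant enzymes carry the sum, and gene by gene the count was mixed. Of the 15, RT4 and RT112 cells each had 9 lower and SW780 cells had 8. In the order RT4, RT112 and SW780, 3, 2 and 2 were higher, where 40.3%, 36.0% and 32.8% of all loci were. In all lines 5 were lower, among them GAPDH, whose fall was known when the list was made. Of all loci, 33.5%, 25.2% and 28.2% were lower in RT4, RT112 and SW780, and 4.99% in all lines.

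GAPDH, which oxidises glyceraldehyde phosphate and served as a loading control for protein in the study, was the most abundant of the enzymes. Its FPKM went from 1989.5 to 977 in RT4, from 1304 to 958 in RT112 and from 1306 to 677 in SW780 cells. The log2 ratios were -1.03, -0.45 and -0.95, and after correction for GC content -0.31, -0.86 and -0.74. GENCODE 29 names 62 GAPDH pseudogenes, none of them a named row of the table. TPI1, ENO1 and LDHA each have 1 pseudogene that is a row of it. How reads were shared with such copies is not given in the sources used here.

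TPI1 and PKM, the isomerase of the triose phosphates and the enzyme that makes pyruvate, changed by a small and even amount. TPI1 went from 444 to 349 FPKM in RT4, from 377 to 270.1 in RT112 and from 365 to 286 in SW780 cells, log2 ratios of -0.35, -0.48 and -0.35. PKM went from 415 to 328, from 415 to 308 and from 410.0 to 311 FPKM, with ratios of -0.34, -0.43 and -0.40. Both genes lie just inside the limit, and ENO1 lies just outside it with -0.33, -0.27 and -0.51. After correction for GC content the RT4 ratios of all 3 turned positive, to 0.22 for TPI1, 0.35 for PKM and 0.39 for ENO1. When libraries were rescaled to the same sum, TPI1 and PKM were no longer below -0.3 in all lines.

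GPI, which interconverts the hexose phosphates, fell in all lines with and without the GC correction. Its locus went from 85.3 to 51.6 FPKM in RT4, from 74.9 to 38.2 in RT112 and from 107 to 49.5 in SW780 cells, log2 ratios of -0.72, -0.97 and -1.12. The values were -0.51, -1.03 and -1.07 after correction for GC content. The assembled locus also carries the name PDCD2L, a neighbouring gene, and the table cannot separate them.

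Isozymes of the same step went different ways. Of the aldolases, ALDOC fell from 9.65 to 2.36 FPKM in RT112 and from 9.60 to 2.59 in SW780 cells and was low in RT4 cells (1.84 and 1.43), log2 ratios of -2.03, -1.89 and -0.37. The abundant ALDOA fell from 153 to 67.1 in RT4 and from 143 to 59.0 in SW780 cells but was at 167 and 160.2 in RT112 cells, a ratio of -0.06. Of the enolases, ENO2 rose from 3.02 to 19.2 FPKM in RT4 and from 4.16 to 7.91 in SW780 cells and fell from 2.98 to 1.78 in RT112 cells. Even so ENO2 was at most 9.07% of the summed FPKM of ENO1 and ENO2, in RT4 cells with quisinostat.

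Hexokinase, which traps glucose in the cell, shifted away from the HIF-responsive isozyme HK2. HK2 went from 18.6 to 7.27 FPKM in RT4 and from 15.6 to 6.70 in RT112 cells, log2 ratios of -1.35 and -1.21, and from 9.58 to 8.60 in SW780 cells (-0.16). HK1 was at 42.5 and 52.5 FPKM in RT4, 63.1 and 61.8 in RT112 and 52.6 and 52.7 in SW780 cells. The share of HK2 in the sum of both went from 30.4% to 12.1% in RT4, from 19.8% to 9.79% in RT112 and from 15.4% to 14.0% in SW780 cells, while the sum itself had log2 ratios of -0.03, -0.20 and -0.02.

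Phosphofructokinase, the committed step of glycolysis, changed its makeup more than its sum in RT4 cells, while in RT112 cells the sum rose as well. PFKL fell from 21.3 to 5.58 FPKM in RT4 and from 10.00 to 4.26 in SW780 cells, whereas in RT112 cells it rose from 12.9 to 31.8. PFKM rose from 11.7 to 36.1 in RT4 cells and was at 13.1 and 12.1 in RT112 and 20.9 and 24.8 in SW780 cells. PFKP rose from 44.3 to 63.5 in RT112 and from 28.0 to 43.3 in SW780 cells and was at 29.6 and 27.1 in RT4 cells. In RT4 cells the leading isozyme changed, with PFKP at 47.3% of the sum in DMSO and PFKM at 52.5% in quisinostat. The sum over the 3 genes had log2 ratios of 0.14, 0.61 and 0.30. PFKL has the highest GC content of the 36 genes (63.5%), and its ratios of -1.93, 1.31 and -1.23 were -0.73, 0.52 and -0.87 after the GC correction.

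**Figure D3:**
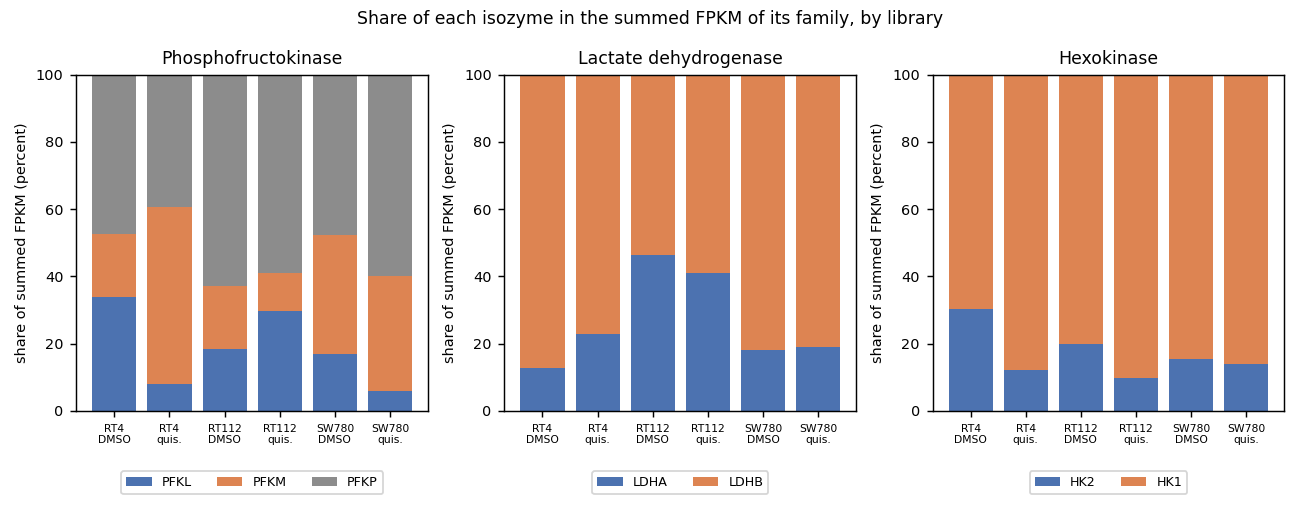
Share of each isozyme, in percent, in the summed FPKM of its family in the 6 libraries (1 library per bar, no error), for phosphofructokinase, lactate dehydrogenase and hexokinase. PFKM went from 18.7% to 52.5% in RT4 cells, LDHA made up 46.2% in RT112 cells with DMSO, and HK2 took a smaller share with quisinostat than with DMSO in all 3 lines.

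PGK1 and PGAM1, enzymes between GAPDH and enolase, were lower in RT112 cells alone. PGK1 was at 121 and 134 FPKM in RT4 cells, fell from 205 to 100.1 in RT112 cells and was at 107 and 106 in SW780 cells. PGAM1 had log2 ratios of 0.08, -0.42 and -0.12. In RT112 cells 5 of the 6 enzymes from GAPDH to PKM were lower, where 25.2% of all loci were, and ENO1 was the exception at -0.27. The 5 include GAPDH, whose fall was known when the list was made.

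Most of the genes grouped here as HIF targets outside glycolysis were higher in RT4 and SW780 cells. Of the 9 with ratios, 8 were higher in RT4 cells, 8 in SW780 cells and 3 in RT112 cells. VEGFA was the one of these 9 that fell in all. The counts rest on this grouping, which puts CA9, CA12 and EGLN3 elsewhere. CA9 fell in all lines, CA12 had -0.59 in RT4 cells, and EGLN3 had -0.25, -0.30 and -0.38 in RT4, RT112 and SW780 cells. Of all loci, 40.3% were higher in RT4, 32.8% in SW780 and 36.0% in RT112, so the RT112 count is near the share of all loci. RT4 had a median of 1.21 over these 9 on the log2 scale, RT112 one of -0.24 and SW780 one of 0.86. In RT4 and SW780 cells none of the other 8 followed CA9 and VEGFA down past the limit, while in RT112 cells BNIP3 and NDRG1 did.

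ADM, MXI1 and BHLHE40 rose in all lines. ADM encodes the vasodilator peptide adrenomedullin, and went from 4.72 to 10.9 FPKM in RT4, from 1.07 to 6.43 in RT112 and from 0.867 to 1.57 in SW780 cells (log2 ratios 1.21, 2.59 and 0.86). MXI1, an antagonist of MYC, went from 0.450 to 4.37, from 3.63 to 5.27 and from 0.720 to 2.90 FPKM (3.28, 0.54 and 2.01). BHLHE40, a transcriptional repressor, went from 2.82 to 13.4, from 28.97 to 41.7 and from 11.9 to 44.8 FPKM (2.25, 0.52 and 1.91). All 3 stayed above 0.3 in each line after the GC correction, after centring and with a pseudocount of 1. On division by ACTB, MXI1 and BHLHE40 turned negative in RT112 cells.

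BNIP3 and NDRG1 moved in opposite directions in different lines. BNIP3, which takes part in the removal of mitochondria, rose from 1.17 to 4.64 FPKM in RT4 and from 1.25 to 2.85 in SW780 cells and fell from 4.53 to 1.24 in RT112 cells. Its log2 ratios of 1.99, 1.19 and -1.87 were 2.08, 1.20 and -1.86 after the GC correction, so they hardly depend on it. GENCODE 29 names 39 BNIP3 pseudogenes, none a named row of the table. NDRG1, a stress-response gene, rose from 5.94 to 9.47 FPKM in RT4 and from 2.78 to 12.9 in SW780 cells and fell from 22.5 to 13.5 in RT112 cells.

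PLOD2 and P4HA1, hydroxylases that modify collagen, and BNIP3L, a relative of BNIP3, rose in RT4 and SW780 cells and stayed within 0.3 of no change in RT112 cells. PLOD2 went from 0.941 to 11.5 FPKM in RT4 and from 9.196 to 16.3 in SW780 cells and was at 14.8 and 12.9 in RT112 cells. P4HA1 had log2 ratios of 1.21, -0.25 and 0.61, and BNIP3L 1.16, -0.24 and 0.58. Of the 10 genes higher in both RT4 and SW780 cells, 7 had a ratio below 0 in RT112 cells (70.0%), where 31.6% of the 2094 loci higher in both did. In these 7 the GC content had a median of 47.1%. After the GC correction all 7 remained above 0.3 in RT4 and SW780 cells, and 6 were below 0 in RT112 cells, of which 3 (BNIP3, NDRG1 and ENO2) were past -0.3.

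**Figure D4:**
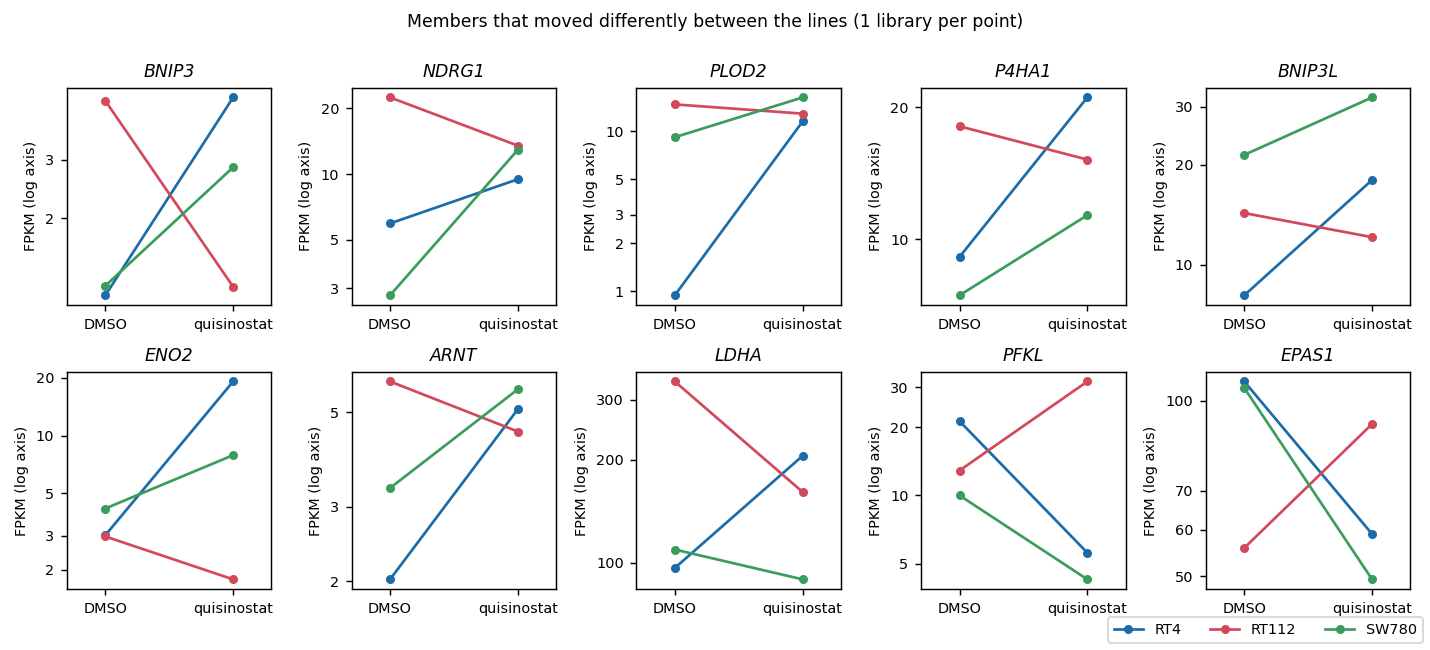
FPKM on a log axis with DMSO and with quisinostat in RT4, RT112 and SW780 cells (1 library per point, no error) for 10 genes whose change differed between lines. BNIP3 crosses over, down from 4.53 to 1.24 in RT112 and up from 1.17 to 4.64 in RT4 cells, while PLOD2 ends between 11.5 and 16.3 in all lines.

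The subunits and sensors of the pathway itself gave no common direction. None of the 5 present was lower or higher in all lines, where 4.99% of all loci were lower and 11.4% higher. With 5 genes and such shares, nothing is read from this count. HIF1A was at 39.3 and 52.0 FPKM in RT4, 123 and 80.3 in RT112 and 74.5 and 68.9 in SW780 cells, log2 ratios of 0.41, -0.62 and -0.11. Its locus also carries SNAPC1, so these are values of both genes, and after the GC correction the RT4 ratio turned to -0.11. EPAS1 fell from 108 to 59.0 FPKM in RT4 and from 105 to 49.4 in SW780 cells, whereas RT112 cells went up from 55.9 to 91.1. ARNT, their partner, rose from 2.02 to 5.09 in RT4 and from 3.32 to 5.67 in SW780 cells and fell from 5.91 to 4.51 in RT112 cells.

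EGLN3 and VHL, which mark HIF alpha for destruction, had ratios between -0.38 and 0.35. EGLN3 is itself a HIF target, and was at 24.6 and 20.7 FPKM in RT4, 6.03 and 4.89 in RT112 and 12.3 and 9.43 in SW780 cells. Its ratios of -0.25, -0.30 and -0.38 put it just below -0.3 in RT112 and SW780 cells, and centring on the median of all loci brings it below -0.3 in all lines. VHL had ratios of 0.35, -0.10 and -0.10. HIF is regulated mainly as a protein, which these libraries do not measure.

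SLC2A1, the main glucose transporter of these genes, went from 16.8 to 9.51 FPKM in RT4 cells and was at 50.4 and 41.3 in RT112 and 32.1 and 38.1 in SW780 cells, log2 ratios of -0.82, -0.29 and 0.25. SLC16A3, which exports lactate, was listed at 0 in 5 libraries and at 1.89 FPKM in RT112 cells with quisinostat. PFKFB3 and PFKFB4 make an activator of phosphofructokinase. PFKFB3 rose from 2.73 to 5.37 FPKM in RT4 and from 8.39 to 14.4 in RT112 cells and fell from 6.03 to 4.78 in SW780 cells. PFKFB4 had log2 ratios of 0.51 in RT4 and 0.35 in RT112 cells and went from 0.751 FPKM to a listed 0 in SW780 cells.

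LDHA, the HIF-responsive subunit of lactate dehydrogenase, rose from 96.5 to 205 FPKM in RT4 cells, fell from 339 to 161 in RT112 cells and was at 109 and 89.3 in SW780 cells. LDHB was at 651 and 688 FPKM in RT4 cells and fell from 394 to 233 in RT112 and from 498 to 381 in SW780 cells. The share of LDHA in the sum of both went from 12.9% to 23.0% in RT4, from 46.2% to 40.9% in RT112 and from 18.0% to 19.0% in SW780 cells. PDHA1 and PDHB, subunits of the enzyme that feeds pyruvate to mitochondria, had log2 ratios between -0.39 and 0.31 in all lines.

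With DMSO alone, RT112 cells had the highest level of more of these genes than the other lines. RT112 was highest at 19 of the 36, where it was highest at 29.4% of all loci. RT4 was highest at 10 (36.2% of all loci) and SW780 at 7 (34.4%). The 19 include CA9, VEGFA, HIF1A, NDRG1, PLOD2, BHLHE40, SLC2A1, PGK1 and LDHA. With quisinostat RT112 was highest at 12, near its share of all loci (35.0%), and RT4 at 17, where it was highest at 33.0% of loci. The RT112 DMSO library enters both this comparison and the RT112 ratios, so the same value stands behind the high level and the fall.

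Levels of most of the 9 genes grouped as HIF targets outside glycolysis came closer to each other between the lines with quisinostat. These gaps come from the same libraries as the ratios above and add no separate evidence. The median gap between the highest and the lowest line, over 9 HIF targets outside glycolysis, was 2.45 on the log2 scale with DMSO and 0.89 with quisinostat, and 8 of the 9 gaps narrowed. Over all 9112 loci the median gap was 0.97 and 1.03, and 46.6% narrowed. NDRG1 lay between 2.78 and 22.5 FPKM with DMSO and between 9.47 and 13.5 with quisinostat, and ADM was the exception. Among the 15 glycolytic enzymes 8 gaps narrowed, with medians of 0.62 and 0.53. When libraries were divided by ACTB, 4 of the 9 gaps narrowed, where 27.7% of all loci did. After quantile normalization 6 of the 9 narrowed, where 40.5% of all loci did.

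Other genes of the same pathways were taken from lists made alongside the members. Of 25 other glycolysis and pyruvate genes with ratios, none was lower in all lines and 4 were higher, where 4.99% of all loci were lower and 11.4% higher. These were PGM2L1, BPGM, PDP1 and TIGAR, with weakest log2 ratios of 1.13, 0.52, 0.52 and 0.31. BPGM, which makes bisphosphoglycerate, went from 26.9 to 99.7 FPKM in RT4, from 19.8 to 54.6 in RT112 and from 22.7 to 32.5 in SW780 cells. The median ratio of this list was 0.46, -0.0021 and 0.10.

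Of 36 other HIF target and hypoxia response genes with ratios, 2 were lower and 10 were higher in all lines, to be read against the same shares of all loci, 4.99% and 11.4%. KLHL24, RRAGD, RNASE4 and TMEM45A led those that were higher, with weakest log2 ratios of 1.94, 1.69, 1.55 and 0.76, and RNASE4 shares its locus with ANG. RRAGD, a GTPase that signals amino acid supply to mTOR, went from 0.691 to 20.6 FPKM in RT4, from 0.988 to 3.19 in RT112 and from 0.636 to 4.53 in SW780 cells. Named after their values were seen, the 2 that fell were FAM162A and DDIT4. FAM162A, a mitochondrial protein, had ratios of -0.75, -1.005 and -0.43, and DDIT4, an inhibitor of mTOR, had -0.30, -0.85 and -0.52. By line, 25 of the 36 were higher in RT4 (40.3% of all loci), 19 in RT112 (36.0%) and 17 in SW780 cells (32.8%). Lower were 7, 9 and 9 in the same order, where 33.5%, 25.2% and 28.2% of all loci were. RT112 cells thus did not stand apart in this list as they did among the 9 listed HIF targets. Median ratios of this list were 0.66, 0.34 and 0.24. Of 5 other carbonic anhydrases and pH regulators with ratios, CA11 alone was higher in all lines, none was lower, and CA12 had no ratio in all lines.

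Taking the lines as replicates, limma on log2(FPKM + 1), with cell line as a block and Benjamini-Hochberg adjustment, called 0 of 9430 loci (0.0%) at an adjusted p of 0.05. At an unadjusted p under 0.05 it gave 392 loci lower (4.16%) and 913 higher (9.68%). Of the 39 genes, 36 had a mean FPKM of at least 1 once CA9 and GAPDH were set aside, and of these 5 were lower and 3 higher at this level and none passed the adjustment, with a smallest adjusted p of 0.245. Since the genes were chosen with this contrast in view, no p is set beside the name of a gene.

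GC-rich transcripts tended to fall in RT4 and SW780 cells and to rise in RT112 cells. Across 8258 loci Spearman's rho of GC content with the ratio came to -0.50 for RT4, 0.43 for RT112 and -0.23 for SW780. This is across genes of 2 libraries, and genes are not replicates. The 7 genes lower in all lines had GC contents from 51.3% to 60.1%, with a median of 57.3% where that of all loci was 48.1%. After subtraction of a smooth curve of the ratio on GC content in each line, GPI, GAPDH and VEGFA were lower in all lines, and ADM, MXI1 and BHLHE40 were higher. The part of the GC trend in the falls and rises was not tested.

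**Figure D5:**
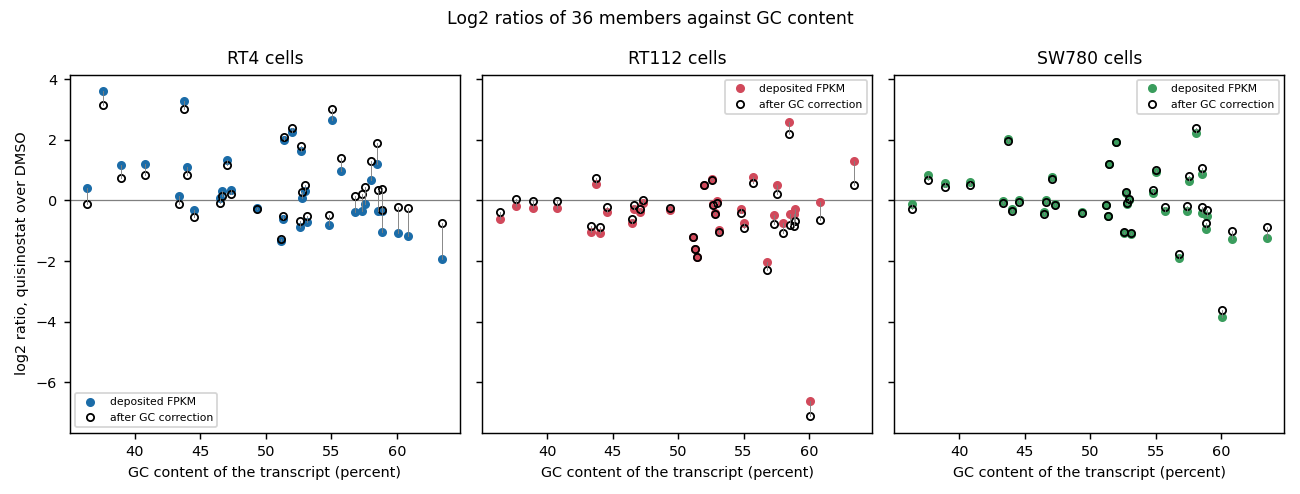
Log2 ratio of quisinostat over DMSO against the GC content of the transcript (percent) for 36 genes in RT4, RT112 and SW780 cells, as deposited (filled) and after the GC correction (open), with a line joining the values of a gene. In RT4 cells the genes of high GC content move up, such as PFKL from -1.93 to -0.73, and in RT112 cells they move down.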

How the data were processed

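PolyA RNA libraries of 6 samples were made with a stranded kit and sequenced on a NovaSeq by the authors, whose pipeline ran from HISAT2 alignment through StringTie assembly to gene values by Ballgown. The submitters' processing notes also name CASAVA 1.8.2, Trimmomatic 0.36, HISAT2 2.2.1, SAMtools 1.15.1, StringTie 2.2.1 and GRCh38. The annotation release and the rule for keeping rows are not given in the sources used here. The deposited values are FPKM, not counts, so depth is unknown and no interval rests on it. One label of the SW780 quisinostat library spells the line differently, and its title was followed.

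One value per assembled locus was used. Main ratios had no pseudocount and no filter beyond values above 0 in all 6 libraries. limma 3.58.1 used log2(FPKM + 1), loci averaging 1 FPKM or more, a mean-variance trend and cell line as a block, because both libraries of a pair come from the same line. It was tested on simulated data, where it missed part of the planted changes, so a lack of calls is no sign of a lack of change. The GC correction (lowess, span 0.3) was tested on simulated data too. It used the longest protein-coding transcript in GENCODE 29 and had a value for 8407 loci. Gene positions come from GENCODE 29 and promoters from RefSeq on GRCh38.p14.

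The members and all lists were chosen with earlier results of these data known. Genes were named by a rule: CA9 and GAPDH, members past 0.3 the same way in all lines, the 6 with the widest range over the lines, and the oxygen sensors and HIF subunits; any other member may be named. From each other list up to 4 genes past 0.3 in all lines were named by their weakest ratio. Alternatives were other pseudocounts (0.01, 0.1 and 1), filters (mean FPKM of 1 and 5), limits (0.5 and 1), scalings, single-name loci and leaving out a line. Python 3.11.15 and R 4.3.3 were used.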

Additional observations from a re-analysis of the deposited data

Results flagged for a closer look

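In 9 of the 36 genes the log2 ratio was below -0.3 in at least 1 line and above 0.3 in another, where 29.3% of all loci were. With 1 library per line and treatment, the difference between lines was not tested for any of them. The gap between the lowest and the highest ratio was 3.86 for BNIP3, 3.41 for ENO2, 2.95 for NDRG1 and 1.72 for ARNT, all higher in RT4 and SW780 cells and lower in RT112 cells. PFKL had a gap of 3.23 and EPAS1 of 1.796, both lower in RT4 and SW780 cells and higher in RT112 cells. LDHA, with a gap of 2.16, and HIF1A, with 1.02, were higher in RT4 cells and lower in RT112 cells. PFKFB3, with a gap of 1.31, was higher in RT4 and RT112 cells and lower in SW780 cells. After the GC correction ARNT, HIF1A and PFKFB3 were no longer past 0.3 in both directions, ARNT being at -0.28 in RT112 cells, while SLC2A1, ENO1 and PKM were, so that the count stayed at 9 (18.1% of loci).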

How the results depend on the processing

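Of the counts, medians and sums recomputed under each alternative, 165 stayed within 1.5 times the main count or near the main value. These include the limma counts that stayed at 0. Another 43 moved and 1, the summed glycolytic enzymes in RT4 cells, reversed. A change of sign counted as a reversal only where the main value was past 0.3. The RT4 sum without GAPDH, which also changed sign, is therefore among those that moved. Division by ACTB moved most. Lower genes then numbered 3 in RT4 and 34 in RT112, and higher genes 27 and 1. In the order RT4, RT112 and SW780 the medians were 0.94, -1.45 and -0.41, beside 0.91, -1.05 and -0.26 over all loci. In all lines 2 were lower (HK2 and ALDOA), where 6.89% of loci were, and 1 was higher, where 3.5% were. In opposite directions were 26, near the share of all loci (68.3%), and 13 gaps narrowed (HIF targets 4), where 27.7% of loci did. The same division reversed VEGFA (0.22), SLC2A1 (0.0072), GPI (0.10), ALDOC (0.46), TPI1 (0.48), ENO1 (0.50), PKM (0.49) and PDHB (0.52) in RT4 cells, and EPAS1 (-0.40), MXI1 (-0.56), BHLHE40 (-0.58), PFKP (-0.58) and PFKFB3 (-0.33) in RT112 cells. The GC correction left 8 genes lower in RT4 cells and 3 lower in all lines, where 5.92% of loci were. In RT4 cells it reversed HIF1A (-0.11), ALDOC (0.14), TPI1 (0.22), ENO1 (0.39) and PKM (0.35). In the order RT4, RT112 and SW780, the summed glycolytic enzymes had log2 ratios of -0.034, -0.73 and -0.42 with the GC correction (without GAPDH 0.22, -0.66 and -0.26) and 0.20, -1.50 and -0.89 on division by ACTB (without GAPDH 0.55, -1.48 and -0.70). A limit of 0.5 gave 9, 12 and 9 lower genes in RT4, RT112 and SW780 cells and 3 in all. A limit of 1 gave 5, 7 and 6 lower, 11, 2 and 4 higher, 1 lower in all and 0 higher in all. It gave 3 in opposite directions, where 5.97% of loci were. With a mean FPKM of at least 5, 7 were higher in SW780 cells and 1 in all lines, where 8.34% of loci were. Leaving out 1 line gave 9 to 11 lower in all remaining lines, 4 to 10 higher and 1 to 8 in opposite directions. A limit met in fewer lines is also met by more of all loci. Without RT112 these 3 counts were 11, 10 and 1, and 2094 of the 9112 loci were higher in both remaining lines. Leaving out 1 line gave 19 to 23 narrower gaps and 6 to 9 among HIF targets, where 42.2% to 54.7% of loci narrowed. limma called 0 loci under every alternative; without the replicate block, that is without the pairing by line, it gave 106 loci lower and 314 higher at an unadjusted p under 0.05. The counts of opposite directions and narrower gaps and the alternatives for the enzyme sums were chosen after seeing the data. A count without a share of all loci beside it is not read as a result about these genes. Unless given by the setting itself, the cause was not tested. Depth is unknown, so values under 1 FPKM, CA9 in RT4 and SW780 cells among them, have no stated precision.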

Other observations

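By the distance between the 3 log2 ratios, over the 8898 loci averaging 1 FPKM or more, the genes nearest to CA9 were AC008622.2 (3.46), MX1 (3.65), C1DP1 (3.65), LXN (4.45) and APOBEC3G (4.54), none of them a listed gene. These distances are wide, and no gene came close to the ratios of CA9 in all lines. AC008622.2 shared the fall in RT112 cells, from 11.7 to 0.119 FPKM, with log2 ratios of -0.04 in RT4 and -0.56 in SW780 cells. MX1, an interferon-induced antiviral gene, had ratios of -1.04, -3.03 and -3.13, and in RT112 cells it was at 0.0323 FPKM or less. APOBEC3G, a cytidine deaminase that restricts viruses, went from 14.1 to 10.9 FPKM in RT4, from 3.35 to 0.391 in RT112 and from 9.77 to 4.67 in SW780 cells.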
